A study of Mus musculus with 66 samples.

Results

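The transcripts described here code for the phase I enzymes of drug and aldehyde metabolism. They are the rows of the expression table whose gene symbol starts with Cyp (cytochrome P450), Ces (carboxylesterase), Fmo (flavin-containing monooxygenase), Adh (alcohol dehydrogenase), Aldh (aldehyde dehydrogenase) or Akr (aldo-keto reductase) followed by a digit, with the sterol synthesis enzyme Cyp51 left out. This rule found 94 transcripts of 90 gene symbols among the 9481 transcripts of 8978 symbols in the table. Of these, 46 are of the Cyp family, 13 Ces, 2 Fmo, 4 Adh, 18 Aldh and 11 Akr.

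The samples were mouse small intestinal organoids, which are epithelial structures grown in a gel from intestinal crypts, of a line that carries a green fluorescent protein and diphtheria toxin receptor cassette at the Lgr5 locus (Lgr5GFPDTR/+). The study compared 3 culture media. ENR holds epidermal growth factor (EGF), Noggin and R-Spondin-1 and keeps stem cells and differentiated cells side by side. CV is ENR with CHIR99021 at 3 µM, which activates Wnt signaling, and valproic acid at 1 mM, and it enriches for stem cells. EN is ENR without R-Spondin-1, and it enriches for differentiated cells, mainly enterocytes. CV and EN differ in medium, in cell composition and, per the study's methods, in the time in culture, and these cannot be told apart. Each culture was measured with 4 libraries of RNA-seq, 4 of ATAC-seq and 1 of ChIPmentation for the factor Hnf4g. For each of the marks H3K27ac, H3K4me3 and H3K27me3, the scores of 3 ChIPmentation libraries per culture were used here, of the 4 (5 for H3K27ac in CV) that the labels give. Nothing in the sources says whether replicates came from separate cultures or animals, so p-values measure only the spread between these libraries.

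Phase I enzymes add or expose a reactive group on a drug, toxin, steroid or lipid, so that conjugating enzymes can make it soluble. P450 enzymes oxidize their substrates with electrons passed on by reductases, flavin monooxygenases do so with electrons taken directly from NADPH, carboxylesterases split esters and amides, and alcohol and aldehyde dehydrogenases and aldo-keto reductases interconvert alcohols, aldehydes or ketones, and acids. In the small intestine these enzymes sit mostly in absorptive enterocytes of the villus, where they act on what is eaten before it reaches the liver, and the retinol and retinal dehydrogenases among them make retinoic acid from dietary vitamin A.

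RNA libraries held 5630951 to 8859744 expected counts. Stem cell markers were lower in EN than in CV for 7 of 7 transcripts and proliferation markers for 5 of 5, and enterocyte markers were higher for 9 of 9, with a summed level of 52224 to 54727 CPM (counts per 1000000 counts of a library, after TMM normalization) in the 4 EN libraries against 6590 to 6973 CPM in the 4 CV libraries. Goblet cell markers (5 of 5 higher, 8447 to 9338 CPM in EN against 856 to 949.8 CPM in CV), enteroendocrine markers (4 of 4 higher, 1448 to 1915 against 24.3 to 36.9 CPM) and tuft cell markers (3 of 3 higher) also moved with the culture, and of 4 Paneth cell markers 2 were higher and 2 lower. Of the 3 listed markers of cells outside the epithelium, 2 were higher in EN, with a summed level of 23.5 to 29.4 CPM in EN against 3.47 to 4.58 CPM in CV, and the 3 hepatocyte markers summed to 15.7 to 17.6 CPM in EN against 13.5 to 18.7 CPM in CV. Vim carried most of the former (2.96 ± 0.309 CPM in CV and 23.3 ± 3.11 CPM in EN, mean ± SD), with the leukocyte marker Ptprc at 2.64 ± 0.673 CPM in EN. The part of these cell types in the results was not tested, and in bulk RNA fewer cells of a type and less RNA per cell cannot be told apart.

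Together the enzymes took up a far larger share of the transcripts in EN than in CV or ENR. Their TPM (transcripts per 1000000, a level per transcript length) summed to 11402 to 11613 in the 4 CV libraries, 12704 to 13786 in the 4 ENR libraries and 47874 to 50362 in the 4 EN libraries, which is 1.16 to 1.19%, 1.29 to 1.41% and 4.88 to 5.17% of the TPM listed. The EN libraries lay far above both other cultures, and the CV and ENR ranges did not overlap either.

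In summed TPM, the families differed in where the step lay. Cyp transcripts summed to 2653 to 2728 TPM in CV, 2512 to 2741 TPM in ENR and 12368 to 13744 TPM in EN, and Ces transcripts to 3384 to 3508, 3396 to 3653 and 11261 to 12072 TPM, so that in both families the sums of CV and ENR overlapped and only those of EN stood apart. Single transcripts did differ between CV and ENR in the test given below. In CV, 10 of 13 Ces transcripts were called lower and 1 higher, and 19 of 42 Cyp transcripts lower and 9 higher. Over all transcripts, 29.8% were lower and 30.2% higher. Adh transcripts rose over both steps, from 1254 to 1355 TPM in CV through 2544 to 2886 TPM in ENR to 11583 to 11714 TPM in EN. Aldh transcripts went from 1765 to 1881 TPM in CV to 2228 to 2373 TPM in ENR and 6423 to 6584 TPM in EN. Akr transcripts summed to less TPM in ENR (1937 to 2043 TPM) than in CV (2160 to 2211 TPM), and to 5695 to 6023 TPM in EN. On TMM-normalized counts, 5 of 11 Akr transcripts were called higher and 5 lower in CV than in ENR, with a median log2 fold change of 0.01. With TMM the median log2 fold change of CV against ENR was -0.62 for Cyp and -1.50 for Ces. The median of all transcripts for CV against ENR was 0.13 on log2(TPM + 1) and -0.01 with TMM. The difference of the Akr sums therefore depends on the scale, and the overlap of the Cyp and Ces sums of CV and ENR may depend on it too.

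**Figure D1:**
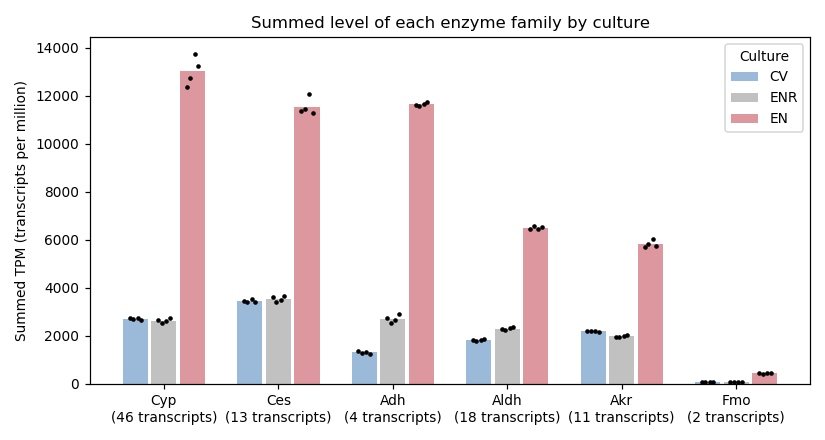
Summed TPM of each enzyme family (vertical axis, linear from 0) in CV, ENR and EN, where bars are means of 4 libraries and points are single libraries. In each of the 6 families the EN libraries sit above those of the other cultures, and the Cyp and Ces bars of CV and ENR are of nearly equal height.

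A few enzymes carried a large part of the level. In CV, the highest was the carboxylesterase Ces2a with 1906 ± 59.7 TPM (SD, n = 4), followed by Cyp2c55 (867 ± 42.7 TPM) and Adh1 (859 ± 29.0 TPM), which differed by less than their spread. In EN, Adh1 stood first with 9741 ± 86.6 TPM and alone made up 19.9% of the summed level, ahead of Ces2a (4498 ± 138 TPM), Aldh1a1 (3951 ± 114 TPM) and Cyp3a11 (3277 ± 314 TPM). The number of transcripts at 1000 TPM or more was 1 in CV, 3 in ENR and 11 in EN.

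Between EN and CV, 80 of the 90 transcripts tested were called changed by edgeR's quasi-likelihood test at a Benjamini-Hochberg adjusted p under 0.01, beside 76.4% of all 9288 transcripts tested. The share called was thus close to the background, and the direction was not: 66 were higher and 14 lower in EN, where over all transcripts 35.2% were higher and 41.2% lower. With a change of at least 2-fold asked for as well, 57 were higher and 13 lower, beside 15.2% and 20.1% of all transcripts (35.4% in both directions). The median log2 fold change was 1.92 over the 90 transcripts and -0.08 over all transcripts (1.96 over the 90 with transcripts of few counts at their count ratio), and it was 3.38 for Adh, 2.96 for Ces, 2.66 for Fmo, 2.42 for Cyp, 1.00 for Akr and 0.75 for Aldh. The families were chosen with earlier results of these data known, so these counts are a description. Here and below, fold and log2 changes are of TMM-normalized counts, as are CPM levels. TPM levels serve to compare transcripts with each other, and they also give the family sums and the levels per culture printed in TPM. On log2(TPM + 1) the median difference of all transcripts between EN and CV was -0.34, against -0.08 with TMM.

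All 4 Adh, all 13 Ces and both Fmo transcripts were higher in EN, as were 28 of 42 Cyp (7 lower), 11 of 18 Aldh (4 lower) and 8 of 11 Akr transcripts (3 lower). The 14 falls therefore lay in 3 families. Leaving out the 28 symbols that share more than 10% of their 31-base words with another listed gene, between which kallisto may divide reads uncertainly, 47 of 62 transcripts were higher and 11 lower, beside 35.2% and 41.2% of all transcripts. Words were compared only with genes in the table. A low share therefore does not exclude reads that come from related genes outside it.

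**Figure D2:**
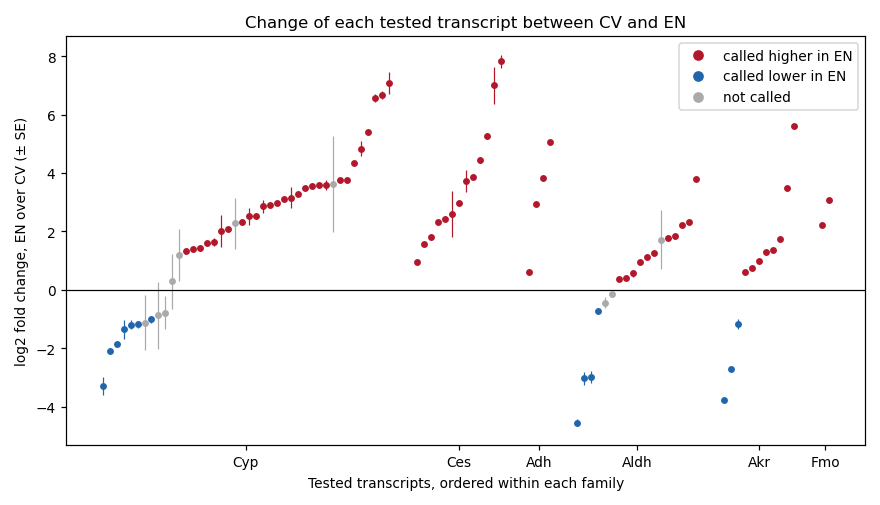
The log2 fold change of EN over CV with its standard error (vertical axis) for each of the 90 tested transcripts, ordered within families (horizontal axis) and colored by the call. Adh, Ces and Fmo hold only transcripts higher in EN, while Cyp, Aldh and Akr each hold a tail of lower ones; the highest Ces and Cyp points belong to transcripts with 4 or fewer counts summed over the CV libraries, whose fitted change depends on the prior count.

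Among the P450 enzymes of drugs, Cyp3a11, the main CYP3A enzyme of mouse gut and liver, had the largest difference in level per length (97.7 ± 2.74 TPM in CV and 3277 ± 314 TPM in EN). It had 121, 116, 114 and 114 in the 4 CV libraries, 313, 286, 319 and 390.2 in ENR and 4168, 4821, 5219 and 5258 CPM in EN. The EN libraries lay above all ENR libraries and these above all CV libraries. EN exceeded CV 41.9-fold (log2 5.39 ± 0.10, SE, edgeR adjusted p = 3.61e-16). Cyp3a11 shares 25.5% of its 31-base words with another listed gene. Cyp3a13, a member of the same subfamily that lies apart from the Cyp3a cluster on chromosome 5, rose 5.74-fold (log2 2.52 ± 0.048, edgeR adjusted p = 4.88e-16), from 268 ± 7.96 to 1541 ± 106 CPM, with ENR at 276 ± 8.60 CPM.

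Cyp2b10, the textbook target of the xenobiotic receptor CAR, had 60.9, 59.1, 57.9 and 61.1 in CV, 143, 130.1, 154 and 156 in ENR and 672, 689, 782 and 706 CPM in EN. Here too the cultures did not overlap, and the rise was 11.9-fold (log2 3.57 ± 0.064, edgeR adjusted p = 2.24e-16). Cyp2s1, an extrahepatic P450 of epithelia, rose 2.68-fold (log2 1.42 ± 0.080).

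The Cyp2c genes, whose enzymes oxidize drugs and arachidonic acid, went in opposite directions although they lie side by side on chromosome 19. Cyp2c29 had 10.2, 6.54, 7.29 and 9.52 in CV, 95.0, 86.9, 93.5 and 117 in ENR and 741, 874, 967 and 848 CPM in EN, a rise of 6.67 ± 0.13 on the log2 scale (edgeR adjusted p = 6.67e-16). Cyp2c55 had 988, 1011, 1060.2 and 922 in CV, 152, 145, 153 and 139 in ENR and 244, 291, 299.7 and 277 CPM in EN. It was the one Cyp2c gene lower in EN than in CV, by 3.59-fold (log2 -1.84 ± 0.060, edgeR adjusted p = 2.02e-13), and its EN libraries lay above its ENR libraries. Of the next genes along the chromosome, Cyp2c65 rose 2.66-fold (463 ± 6.44 to 1232 ± 64.1 CPM) and Cyp2c66 7.49-fold (174 ± 6.02 to 1303 ± 97.5 CPM), and these share 33.5% and 34.9% of their words with another listed gene. Cyp2c37 had 4 counts in all in CV and 499 in EN, a ratio of 155 with a counting interval of 60.3 to 573.

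Cyp2c70, which hydroxylates bile acids in mice, was the member whose ENR level lay above both other cultures. It had 0.674, 0.801, 0.928 and 1.20 in CV, 18.9, 21.1, 17.6 and 19.1 in ENR and 10.6, 9.42, 12.5 and 11.9 CPM in EN. From CV to EN it rose by 3.59 ± 0.18 (log2, edgeR adjusted p = 3.23e-11), and from ENR to EN it fell by 0.78 on the log2 scale (adjusted p = 2.75e-05), which became a difference of 0.20 in the other direction (limma, adjusted p = 0.352) on the authors' mRNA copies.

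In the Cyp2d subfamily, whose human counterpart oxidizes many basic drugs, Cyp2d10 went from 0.539, 0.934, 0.663 and 0.482 CPM in CV to 65.1, 59.1, 65.6 and 63.6 CPM in EN (log2 6.57 ± 0.14, edgeR adjusted p = 1.02e-15), with 9.73, 10.1, 11.7 and 9.19 CPM in ENR. It shares 44.1% of its words with another listed gene. Cyp2d22 was lowest in ENR, at 4.61, 2.78, 4.25 and 5.29 CPM, against 10.4, 14.3, 10.2 and 13.4 CPM in CV and 33.6, 42.2, 37.6 and 36.3 CPM in EN, and none of its cultures overlapped.

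The fatty acid hydroxylases of the Cyp4 subfamilies also split. Cyp4f14 rose 11.8-fold from 164 ± 7.63 to 1936 ± 93.4 CPM (log2 3.56 ± 0.053, edgeR adjusted p = 3.75e-17). Cyp4b1 had 143, 145, 135 and 144 in CV, 39.0, 40.4, 31.4 and 40.6 in ENR and 331, 333, 399 and 345 CPM in EN. Cyp4a10, a classical target of the fatty acid receptor Ppara, had 86.4, 85.7, 80.1 and 78.0 in CV, 6.15, 5.56, 5.62 and 9.82 in ENR and 32.4, 41.1, 40.5 and 32.5 CPM in EN. Both were thus lowest in ENR, but Cyp4b1 was highest in EN (log2 1.31 ± 0.066 against CV) and Cyp4a10 highest in CV (log2 -1.18 ± 0.11, edgeR adjusted p = 5.75e-08); Cyp4a10 shares 36.9% of its words with another listed gene.

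Cyp39a1, an oxysterol hydroxylase, had 7.01, 7.74, 5.04 and 8.19 in CV, 5.12, 9.33, 6.23 and 8.68 in ENR and 0.402, 0.856, 0.714 and 0.864 CPM in EN, so that CV and ENR overlapped and EN lay below both (log2 -3.31 ± 0.31 against CV, edgeR adjusted p = 7.39e-08). Cyp27a1, the mitochondrial sterol hydroxylase of bile acid synthesis, went from 21.97 ± 1.841 CPM in CV to 6.90 ± 0.576 in ENR and 10.8 ± 1.64 in EN (log2 -1.01 ± 0.11). Cyp20a1, an orphan P450 with no known substrate, fell over both steps, from 72.2 ± 1.34 to 47.1 ± 2.12 to 16.9 ± 1.90 CPM (log2 -2.10 ± 0.069), and the ethanol-oxidizing Cyp2e1 fell 2.29-fold from a level of 17.6 ± 2.47 CPM (log2 -1.20 ± 0.16).

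The carboxylesterases rose together. Ces1d, which also splits stored triacylglycerol, had 13.7, 14.1, 15.1 and 14.5 in CV, 123, 125, 137 and 132 in ENR and 539, 555, 586 and 527 CPM in EN. The cultures were separated by far more than their spread, with a rise of 38.3-fold from CV to EN (log2 5.26 ± 0.058, edgeR adjusted p = 3.77e-18). Ces1e rose 21.9-fold, the first transcript of Ces1f (NM_144930.2) 14.7-fold and Ces1g, which acts on lipids, 7.78-fold. Ces1c and Ces3a were close to 0 in CV, with 4 and 1 counts over its 4 libraries against 822 and 157 in EN, ratios of 256 (counting interval 99.6 to 942) and 196 (34.6 to 7775). A second Ces1f transcript (XM_017312731.1) was also called higher, but at 0 to 1.46 CPM in CV and 1.58 to 8.99 CPM in EN the libraries were close, and the call was lost without CV replicate 1 (adjusted p = 0.0171), CV replicate 2 (0.0173), EN replicate 1 (0.0128) or EN replicate 2 (0.0335).

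The Ces2 enzymes, the abundant intestinal carboxylesterases that activate ester prodrugs, started from high levels in CV. Ces2a had 2129.7, 2149, 2274 and 2078 in CV, 2075, 1926, 1963 and 2102 in ENR and 6043, 6492, 6661 and 6240.1 CPM in EN, so that CV and ENR overlapped in part and EN lay above both, by 2.95-fold over CV (log2 1.56 ± 0.042, edgeR adjusted p = 2.11e-14). Ces2c rose 5.00-fold and Ces2e 5.34-fold, and Ces2c shares 19.5% of its words with other listed genes. Ces2g was lowest in ENR (111 ± 3.54 CPM, against 135 ± 7.65 in CV and 262 ± 4.47 in EN).

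Both flavin monooxygenases in the table rose. Fmo5, which oxidizes ketones and is abundant in gut and liver, went from 82.5, 78.6, 74.9 and 75.3 CPM in CV through 111, 119, 116 and 118 CPM in ENR to 667, 665, 664 and 652 CPM in EN (log2 3.09 ± 0.038, edgeR adjusted p = 7.3e-18). Fmo4 rose 4.71-fold, from 32.1 ± 0.733 to 151 ± 10.9 CPM, with ENR at 30.98 ± 2.515 CPM.

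The alcohol dehydrogenases, which oxidize ethanol and retinol, lie within 195 kb on chromosome 3 and all rose, though by very different amounts. Adh1, the main ethanol- and retinol-oxidizing enzyme, had 659.7, 648, 636 and 598 in CV, 1830.0, 1664, 1755 and 1927 in ENR and 8819, 9135, 9057 and 9060.3 CPM in EN, a rise of 14.2-fold (log2 3.83 ± 0.048, edgeR adjusted p = 7.7e-18). Adh4 went from 26.4, 21.6, 23.3 and 24.2 CPM in CV through 119.7, 116, 118 and 121 CPM in ENR to 765, 823, 840.4 and 770.5 CPM in EN, or 33.4-fold (log2 5.06 ± 0.055). In both genes the 3 cultures stood in the same order without overlap. Adh6a rose 7.64-fold. Adh5, the glutathione-dependent formaldehyde dehydrogenase found in most cells, rose 1.51-fold (277 ± 7.53 to 418 ± 10.4 CPM, log2 0.60 ± 0.033).

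Of the aldehyde dehydrogenases, the cytosolic retinal dehydrogenase Aldh1a1 rose most. It had 443, 394, 430.4 and 419 in CV, 608, 559, 637 and 685 in ENR and 5439, 5984, 5909 and 5863 CPM in EN, a rise of 13.8-fold (log2 3.78 ± 0.061, edgeR adjusted p = 8.15e-17). Its close relative Aldh1a7, with which it shares sequence (13.8% of the words of Aldh1a7), rose 4.70-fold. Aldh3a2, the fatty aldehyde dehydrogenase, rose 4.97-fold, and Aldh16a1 3.45-fold. Aldh3b1 was lowest in ENR, with 19.1, 23.4, 24.1 and 22.2 in CV, 7.55, 8.67, 9.26 and 11.3 in ENR and 80.9, 77.1, 82.9 and 74.3 CPM in EN.

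Other members of the family changed less. The mitochondrial Aldh1b1 rose 2.39-fold from CV to EN (986.9 ± 24.98 to 2361 ± 98.2 CPM). Aldh2, the main acetaldehyde dehydrogenase, was not called between EN and CV (270.5 ± 21.6 against 299 ± 8.76 CPM, log2 -0.14 ± 0.049, edgeR adjusted p = 0.0141) and was lowest in ENR (175 ± 2.87 CPM). Aldh6a1, of valine breakdown, and the transcript NM_019993.3 of Aldh9a1, of carnitine synthesis, had small rises (log2 0.41 ± 0.059 and 0.37 ± 0.072) that were not called with spike-in scaling (-0.01 and -0.04, edgeR adjusted p = 0.977 and 0.865).

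Among the 4 Aldh transcripts lower in EN, Aldh4a1, which completes proline breakdown, had 51.2, 50.3, 47.7 and 52.8 in CV, 1.79, 2.62, 2.58 and 1.64 in ENR and 2.01, 2.14, 1.96 and 2.45 CPM in EN. ENR and EN overlapped, and CV was 23.4-fold above EN (log2 -4.55 ± 0.12 for EN against CV, edgeR adjusted p = 2.29e-14). Aldh1l2, a mitochondrial enzyme of one-carbon folate metabolism, showed the same picture at a lower level, with 12.9, 13.6, 13.8 and 10.8 in CV, 2.30, 1.80, 1.97 and 1.01 in ENR and 1.47, 2.14, 1.43 and 1.30 CPM in EN (log2 -3.03 ± 0.22). Its cytosolic counterpart Aldh1l1 rose 1.92-fold, from 126 ± 4.80 to 241 ± 15.2 CPM. Aldh7a1, of lysine breakdown, fell over both steps, from 13.2 ± 1.19 CPM in CV to 4.92 ± 0.754 in ENR and 1.62 ± 0.516 in EN (log2 -2.98 ± 0.20).

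Aldh18a1, which makes the proline precursor that Aldh4a1 consumes, is listed with 2 transcripts that differed. NM_153554.2 rose from 208, 189.9, 212 and 235 CPM in CV to 479, 494, 432 and 439 CPM in EN (log2 1.13 ± 0.077, edgeR adjusted p = 1.73e-09). NM_019698.2 had 137, 160.2, 129 and 129 CPM in CV and 101, 62.5, 116 and 126 CPM in EN and was not called (log2 -0.44 ± 0.18, adjusted p = 0.0365). Summed over both, the gene rose by 0.69 ± 0.040 (log2, SE).

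The aldo-keto reductases of the Akr1b group, aldose reductase and its relatives, went in opposite directions at neighboring genes. Within 119 kb of chromosome 6, Akr1b7 rose and the other 3 fell. Akr1b7 had 5.39, 6.01, 4.37 and 6.14 in CV, 24.3, 20.5, 22.2 and 27.1 in ENR and 257, 277, 268 and 270.2 CPM in EN (log2 5.60 ± 0.086 for EN against CV, edgeR adjusted p = 4.97e-17). Akr1b8 had 142, 147, 145 and 145 in CV, 23.4, 24.9, 24.1 and 26.2 in ENR and 10.9, 11.3, 10.3 and 9.50 CPM in EN (log2 -3.79 ± 0.059, edgeR adjusted p = 5.12e-17). The order of the cultures was thus reversed between them, with no overlap in either. Akr1b3, the aldose reductase itself, fell 6.50-fold (log2 -2.70 ± 0.071) and Akr1b10 2.25-fold (log2 -1.17 ± 0.16). Akr1b10 shares 10.8% of its words with other listed genes.

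The Akr1c group, reductases of steroids and prostaglandins on chromosome 13, rose in each of its members. Akr1c19 had 167, 172, 179 and 168 in CV, 255, 229, 242 and 272 in ENR and 1852, 1964, 2075 and 1778 CPM in EN, a rise of 11.2-fold (log2 3.48 ± 0.059, edgeR adjusted p = 1.35e-16). Akr1c13 rose 3.36-fold and Akr1c12 2.55-fold, and these share 40.2% and 38.9% of their words with another listed gene. Smaller rises were found for Akr1c14 (2.00-fold), Akr1a1, the general aldehyde reductase (1.66-fold), Akr7a5, which reduces aflatoxin aldehyde (2.45-fold) and Akr1e1 (1.54-fold).

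**Figure D3:**
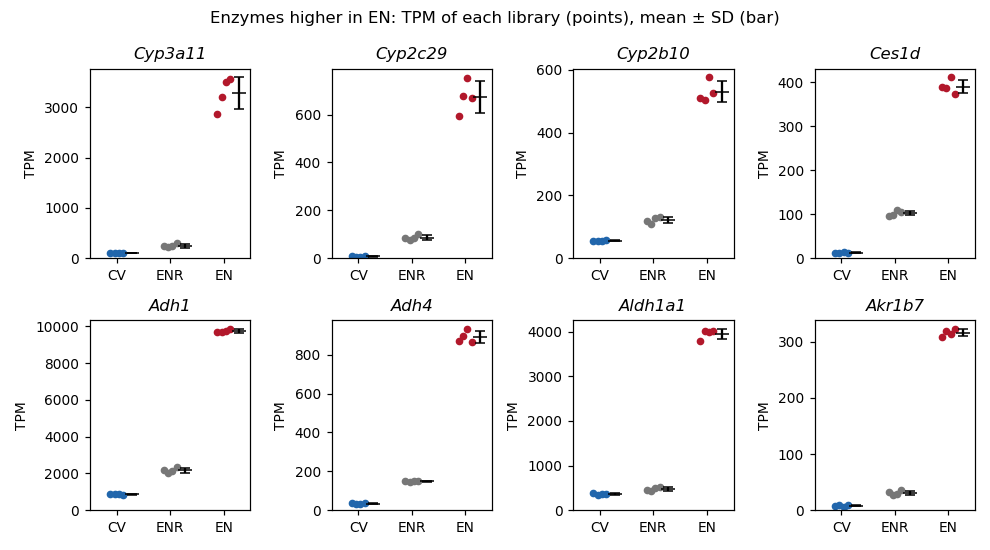
TPM (vertical axes, linear from 0) of 8 enzymes higher in EN, with points for the 4 libraries of each culture and a bar for the mean ± SD. In each panel the 4 EN points lie above the ENR points, and these above the CV points.

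**Figure D4:**
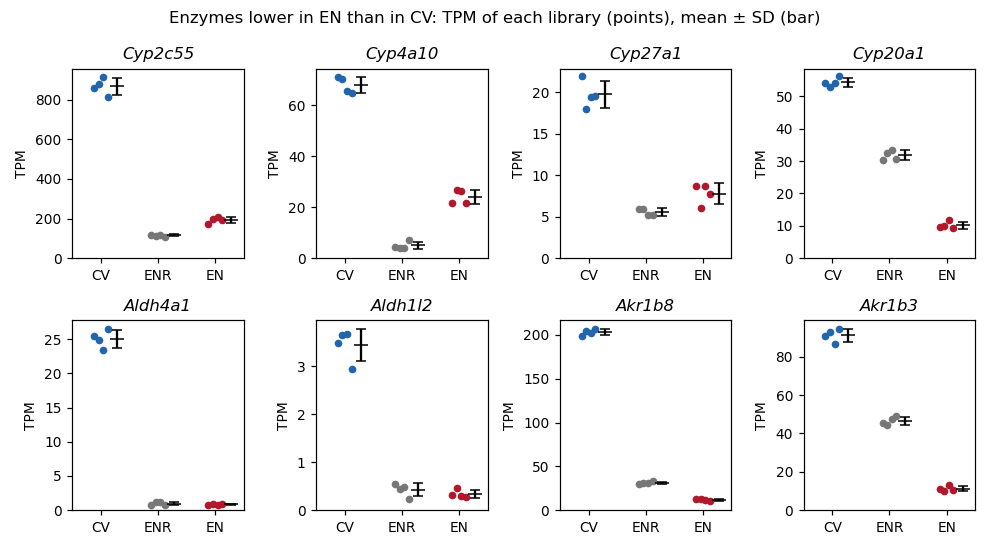
TPM (vertical axes, linear from 0) of 8 enzymes lower in EN than in CV, with points for the 4 libraries of each culture and a bar for the mean ± SD. Akr1b8, Akr1b3 and Cyp20a1 fall over both steps, whereas Cyp2c55, Cyp4a10 and Cyp27a1 are lowest in ENR.

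Of the 90 genes, 59 lie in 11 clusters of at least 3 members of a family with gaps of at most 500 kb in the mm9 annotation. In 7 of them each called transcript was higher in EN: the Adh, Akr1c, Ces1, Ces2 to Ces3, Cyp2d, Cyp4f and Cyp2j clusters. The Cyp2d cluster also held 2 transcripts not called and the Cyp4f cluster 1. The other 4 held calls in both directions: Akr1b (1 higher, 3 lower), Cyp2c (7 higher, 1 lower), Cyp3a (3 higher, 1 lower, 2 not called) and the group of Cyp4a10, Cyp4a32 and Cyp4b1 (1 higher, 1 lower, 1 not called).

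Against ENR, the conventional culture, EN again had mostly higher levels. Of the 90 transcripts, 75 were called (72.7% of all transcripts), 68 higher and 7 lower in EN, where over all transcripts 35.5% were higher and 37.2% lower. At 2-fold or more 58 were called (30.1% of all transcripts), 53 higher and 5 lower (13.1% and 17%). Cyp3a11 rose 14.8-fold from ENR to EN, Akr1b7 11.3-fold, Aldh1a1 9.31-fold and Adh1 5.03-fold (edgeR adjusted p from 6.23e-16 to 6.55e-15). Cyp39a1 had the deepest fall among the named members, by 10.3-fold.

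CV against ENR, a comparison that shares its ENR libraries with the one before, was more mixed. Of the 90 transcripts, 67 were called (60% of all transcripts), 24 higher and 43 lower in CV, where over all transcripts 30.2% were higher and 29.8% lower. The authors' mRNA copies gave 37 called, 17 higher and 20 lower, where 17.8% of all transcripts were called in either direction. At 2-fold or more, 14 were higher and 23 lower in CV, beside 6.74% and 6.17% of all transcripts. The median log2 fold change was -0.33 for all 90 transcripts, -1.50 for Ces, -0.62 for Cyp and 0.39 for Aldh. Among those higher in CV, Aldh4a1 was 23.7-fold above ENR (log2 4.57 ± 0.12), Cyp4a10 11.9-fold (log2 3.58 ± 0.13), Aldh1l2 7.19-fold, Cyp2c55 6.77-fold and Akr1b8 5.87-fold, with edgeR adjusted p from 1.45e-14 to 1.56e-08. Among those lower in CV, Ces1d was 9.00-fold below ENR and Cyp2c29 11.7-fold.

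The genes that serve these enzymes were listed by role and not by their change. Besides Por and Hnf4g, the rule named the largest rises (Rdh7, Rbp2 and Maob) and falls (Cbr3, Bco1 and Pon3), and the other genes given here as examples were chosen after their values were seen. Of the electron donors of P450 enzymes, 5 of 6 were higher and 1 lower in EN than in CV. Over all transcripts tested, 76.4% were called in this comparison, 35.2% higher and 41.2% lower. The P450 reductase Por went from 258 ± 11.8 to 483 ± 39.3 CPM (SD, n = 4; log2 0.91, edgeR adjusted p = 2.15e-10), with ENR below both at 174 ± 3.84 CPM, and cytochrome b5 of the outer mitochondrial membrane, Cyb5b, from 1004 ± 39.5 to 2977 ± 61.3 CPM. Fdxr, which feeds mitochondrial P450 enzymes such as Cyp27a1, was the one that fell (log2 -0.44).

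Of 15 transcription factors and sensors of these enzymes, 10 are listed, of which 8 were higher and 2 not called between EN and CV. The shares over all transcripts were 35.2% higher and 41.2% lower. The largest rise was in Hnf4g (122 ± 5.03 in CV, 369 ± 9.20 in ENR and 1406 ± 105 CPM in EN, log2 3.52), while its paralog Hnf4a stood at 726 ± 15.1 and 703 ± 12.3 CPM (log2 -0.05, adjusted p = 0.153). The partner receptor Rxra (log2 2.34), the fatty acid receptor Ppara (1.94) and the vitamin D receptor Vdr (1.63) rose, and Ahr, the dioxin receptor, rose little (0.41). The xenobiotic receptors Nr1i2 and Nr1i3 were not analysed here.

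Among other oxidizing, reducing and hydrolyzing enzymes, 7 of 10 were higher and 3 lower in EN, beside 35.2% and 41.2% of all transcripts. The monoamine oxidase Maob went from 11.2 ± 1.90 to 146 ± 11.4 CPM (log2 3.68) and the epoxide hydrolase Ephx2 from 128 ± 2.85 to 925 ± 46.4 CPM (log2 2.86), and the carbonyl reductase Cbr3 fell (log2 -2.24) where Cbr1 rose (log2 1.95), and the lactonase Pon3 also fell (log2 -0.85). Of 7 transcripts of retinoid handling, 6 were higher and 1 lower, beside the same shares of all transcripts. Rdh7, a retinol dehydrogenase, rose from 14.5 ± 1.25 to 852 ± 24.0 CPM (log2 5.87) and the retinol-binding Rbp2 from 122 ± 4.36 to 1755 ± 133 CPM (log2 3.85), whereas Bco1, which splits carotene, fell (log2 -1.61).

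At the promoters, the authors' normalized scores of the union of peaks were compared between EN and CV with limma. Of the 90 symbols, 70 had at least 1 region within 500 bp of an annotated start site, 90 regions in all. Among the 20 without one were Cyp2c29, Cyp2c37, Ces1c and Ces3a, all higher in EN, and Cyp4a10 and Cyp2e1, lower in EN.

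In ATAC-seq, which reads open chromatin, 39 of 90 promoter regions were called at an adjusted p under 0.05 (35.2% of all regions and 34.5% of all regions within 500 bp of a start site). The share called was near the background. Of these, 34 were higher and 5 lower in EN, beside 19.6% and 15.6% of all regions and 18.6% and 15.9% of those near start sites, and quantile normalization gave 26 and 8. The summed ATAC scores themselves went from 1752385 to 1840402 in CV to 1993594 to 2109261 in EN. Of the 56 genes with a region whose transcript was higher in EN, 30 had a region called higher and 2 a region called lower, and of the 11 whose transcript was lower, 2 had a region called higher and 3 a region called lower. A gene can have several regions, and the matching shares over all genes were not computed. These counts per gene are therefore a description and show nothing particular to these enzymes.

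Accessibility was gained at Cyp2b10, Adh4 and Cyp3a11. At Cyp2b10 (chr7:26682368-26682732 in mm9, at the start site) the scores were 10, 9, 11 and 4 in the 4 CV libraries, 23, 23, 27 and 21 in ENR and 82, 74, 68 and 92 in EN, a log2 difference of 3.14 ± 0.23 (SE, adjusted p = 1.76e-08). Adh4 (chr3:138078161-138078453) had 1, 2, 2 and 2 in CV, 9, 12, 12 and 18 in ENR and 16, 18, 23 and 34 in EN (log2 3.07 ± 0.28, adjusted p = 1.94e-07). Cyp3a11 (chr5:146691358-146691596) had 2, 2, 4 and 5 in CV, 8, 12, 9 and 6 in ENR and 18, 11, 24 and 31 in EN (log2 2.35 ± 0.32, adjusted p = 1.85e-05). In all of these the EN libraries lay above the CV libraries.

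Accessibility was lost at Akr1b8 (chr6:34303999-34304477), with scores of 15, 17, 17 and 17 in CV and 3, 7, 3 and 10 in EN (log2 -1.51 ± 0.29, adjusted p = 0.000495), and at Cyp27a1 (chr1:74759723-74760872), with 26, 21, 18 and 24 in CV and 10, 13, 10 and 10 in EN (log2 -0.98 ± 0.21, adjusted p = 0.00106). Both transcripts were also lower in EN. A smaller loss at Akr1a1 (chr4:116322623-116324458, log2 -0.69 ± 0.20, adjusted p = 0.0131) stood beside a transcript that was higher in EN, and its EN replicate 1 (score 37) lay within the CV range of 32 to 45.

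H3K27ac, a mark of active promoters and enhancers, was called changed at 32 of 90 promoter regions (7.03% of all regions, 19% of those near start sites), 31 higher and 1 lower in EN, beside 5.07% and 1.96% of all regions and 15.4% and 3.55% of those near start sites. The summed H3K27ac scores also differed, at 1345873 to 1406651 in CV and 1622103 to 1760511 in EN, and their part in the calls was not tested beyond the quantile normalization, which gave 20 higher and 3 lower. The number of regions called was 0 with the replicate number as a block (which was not taken as a pairing), 3 without the trend of the spread on the mean and 15 to 29 when 1 library was left out (21 without CV replicate 5, 17 without EN replicate 2 and 15 without EN replicate 3 or 4). Adh1 had the largest difference (chr3:137940344-137941547), with scores of 17, 66 and 48 in CV, 81, 55 and 53 in ENR and 289, 249 and 393 in EN (log2 2.97 ± 0.33, adjusted p = 3.16e-07). Akr1c19 (chr13:4232496-4233743) had 18, 21 and 18 in CV and 147, 86 and 100 in EN (log2 2.45 ± 0.39, adjusted p = 8.84e-05), and Cyp2c66 (chr19:39188189-39189360) 9, 35 and 42 and 124, 118 and 149 (log2 2.39 ± 0.39, adjusted p = 0.000108). The one loss was at Akr1b8, in a region 411 bp from the start site, with 35, 60 and 30 in CV and 9, 10 and 13 in EN (log2 -1.82 ± 0.50, adjusted p = 0.0204); it was not called without CV replicate 4 or without any 1 of the EN replicates.

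H3K4me3, the mark of promoters, was called at 5 of 90 regions (4.9% of all regions, 9.6% of those near start sites), 4 higher and 1 lower, beside 2.75% and 2.15% of all regions and 4.21% and 5.39% of those near start sites, and it was 23 without EN replicate 1, 2 without EN replicate 2, and 3 without CV replicate 2 or CV replicate 4. The loss was again at Akr1b8, in the region 411 bp from the start site (23, 44 and 35 in CV, 6, 7 and 6 in ENR and 6, 4 and 6 in EN, log2 -2.44 ± 0.26, adjusted p = 0.00164). Gains were found at Cyp3a11 (1, 2 and 2 in CV and 13, 9 and 12 in EN, log2 2.22 ± 0.34, adjusted p = 0.00903), Akr1b7 (log2 1.88 ± 0.33, adjusted p = 0.0192) and Ces1d (log2 1.53 ± 0.34, adjusted p = 0.0476). The gain at Akr1b7 was not called without CV replicate 2 or 4 or EN replicate 2, and that at Ces1d was called only without CV replicate 4 or EN replicate 1 among the 9 fits that left out a library. H3K27me3, the Polycomb mark, was called by limma at 0 of 90 regions (0.528% of all regions, 0.14% higher and 0.388% lower, and 0.37% of those near start sites, 0.282% higher and 0.0885% lower), at 2 with an unadjusted p under 0.05, and at 0 without the trend.

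**Figure D5:**
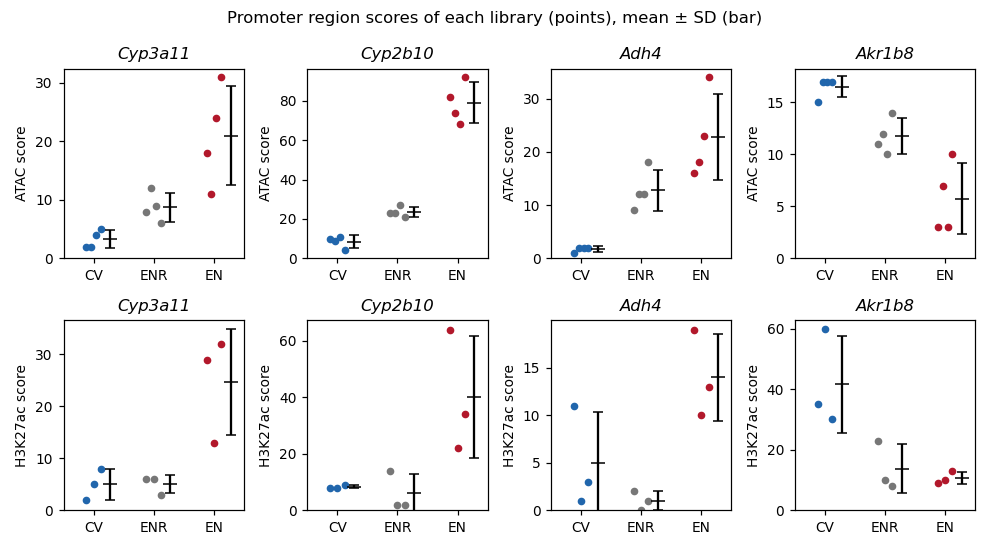
The authors' normalized scores (vertical axes, linear from 0) of ATAC (upper row, 4 libraries per culture) and H3K27ac (lower row, 3 libraries) in promoter regions of 4 enzymes, with points for libraries and a bar for the mean ± SD; for Akr1b8 the lower panel shows the region 411 bp from the start site. Cyp3a11, Cyp2b10 and Adh4 gain ATAC signal from CV to EN and Akr1b8 loses both signals.

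The promoter sequences were searched for short words that nuclear receptors and stress sensors are known to bind. RefSeq promoters (250 bases before to 50 after a start site, GRCm38.p6) were matched for 76 of the 90 symbols, 85 promoters in all. Not matched were Akr1b3, Aldh1l2, Aldh2, Aldh7a1, Ces1d, Ces1f, Ces2b, Ces3a, Cyp2d22, Cyp2d34, Cyp2g1, Cyp2u1, Cyp39a1 and Cyp4a10. Searched on both strands, the HNF4 word CAAAGTCCA was in 7 promoters, or 8.24%, against 0.475% of all 32851 promoters. The nuclear receptor word AGGTCA was in 20% against 16.3%, the NRF2 word TGACNNNGC in 9.41% against 12.4%, the dioxin receptor word GCGTG in 20% against 32.4%, and the TATA box word TATAAA in 24.7% against 13.6%. In the promoters printed whole, no word overlaps another.

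All 7 promoters with the HNF4 word belong to Cyp2c and Cyp3a genes, which are copies of one another within each cluster, so they are not independent. The word lay 45 to 116 bases before the start site and in the sense of the gene in each. The windows are shown because they let the copies be compared, with the word in capitals, 5′ to 3′ in the sense of the gene, from RefSeq on GRCm38.p6. They lie at chr19:39060865-39060923, plus strand (Cyp2c65), chr19:39741145-39741203, minus strand (Cyp2c68), chr19:39812826-39812884, minus strand (Cyp2c40), chr19:40187317-40187375, minus strand (Cyp2c70), chr5:145879930-145879988, minus strand (Cyp3a11), chr5:145469789-145469847, minus strand (Cyp3a16) and chr5:145720198-145720256, minus strand (Cyp3a41a).
Cyp2c65: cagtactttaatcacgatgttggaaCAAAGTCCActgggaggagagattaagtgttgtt
Cyp2c68: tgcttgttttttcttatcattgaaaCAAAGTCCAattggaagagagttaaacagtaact
Cyp2c40: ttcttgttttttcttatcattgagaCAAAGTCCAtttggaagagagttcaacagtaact
Cyp2c70: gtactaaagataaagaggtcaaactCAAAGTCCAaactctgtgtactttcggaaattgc
Cyp3a11: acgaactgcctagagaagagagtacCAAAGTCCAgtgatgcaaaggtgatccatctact
Cyp3a16: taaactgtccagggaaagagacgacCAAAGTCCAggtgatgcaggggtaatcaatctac
Cyp3a41a: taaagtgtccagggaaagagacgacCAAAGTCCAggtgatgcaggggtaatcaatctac

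The transcripts of these 7 genes went in both directions. Cyp2c65, Cyp2c68, Cyp2c40, Cyp2c70 and Cyp3a11 were called higher in EN than in CV, Cyp3a16 was not called and Cyp3a41a was called lower. Matched to mm9 by their sequence, the words of Cyp2c65, Cyp2c68, Cyp2c70 and Cyp3a11 lay inside a region of the union of peaks, and those of Cyp2c40, Cyp3a16 and Cyp3a41a did not. The promoters of Cyp3a11 (chr5:145879805-145880104, minus strand), the P450 gene whose level rose most, and Cyp2c55 (chr19:39006769-39007068, plus strand), which fell, are shown whole for contrast, with each word found in capitals. In Cyp3a11 these are, in order, the TATA box word, the nuclear receptor word and the HNF4 word, and in Cyp2c55 only the TATA box word, 29 bases before the start site.
Cyp3a11: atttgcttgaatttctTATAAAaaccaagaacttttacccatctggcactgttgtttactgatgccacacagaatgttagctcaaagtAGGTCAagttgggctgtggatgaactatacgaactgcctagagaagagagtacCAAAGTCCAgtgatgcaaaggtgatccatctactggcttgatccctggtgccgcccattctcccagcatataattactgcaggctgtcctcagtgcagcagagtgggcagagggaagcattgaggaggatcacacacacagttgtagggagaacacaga
Cyp2c55: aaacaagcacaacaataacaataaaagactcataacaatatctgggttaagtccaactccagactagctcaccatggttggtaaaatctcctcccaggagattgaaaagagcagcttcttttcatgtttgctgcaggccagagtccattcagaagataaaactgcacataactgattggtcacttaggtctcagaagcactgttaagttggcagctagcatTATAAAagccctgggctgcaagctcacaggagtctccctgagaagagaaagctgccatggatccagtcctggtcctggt

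Hnf4g itself was mapped by ChIPmentation in 1 library per culture, so cultures were not tested against each other, and the libraries differed widely in depth. Of the reads in regions, the 90 promoter regions took 171 of 84340 in CV (0.203%, exact binomial 95% interval 0.1735 to 0.2355%), 652 of 352600 in ENR (0.185%, 0.171 to 0.200%) and 4495 of 1816497 in EN (0.2475%, 0.240 to 0.255%). All 18086 regions within 500 bp of a start site took 39.8%, 41.2% and 58.0%. Intervals cover counting error only. No read fell in 47 of the 90 regions in CV, 12 in ENR and 2 in EN, and at the depth of the CV library a count of 0 allows a share of up to 0.00356%.

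The enzyme promoter with the most Hnf4g reads in EN was that of Akr7a5 (chr4:138865889-138868173 in mm9), with 511 reads or 281 per 1000000 reads in regions (257 to 307). Reads are totals per region and were not scaled to its width, which differs widely, so they do not compare binding between promoters. At the promoters with the HNF4 word, Cyp2c65 had 77 reads in EN (42.4 per 1000000, 33.5 to 53.0), 28 in ENR (79.4, 52.8 to 115) and 8 in CV (94.8, 41.0 to 187), and Cyp3a11 had 28 in EN (15.4, 10.2 to 22.3), 1 in ENR and 0 in CV. Cyp2c55, without the word, had 33 reads in EN (18.2, 12.5 to 25.5), 7 in ENR and 0 in CV.

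At the other end, several enzymes were scarcely seen. Cyp2g1, Cyp2j11, Cyp2j12 and the transcript NM_001100181.1 of Cyp4a32 had counts in fewer than 4 libraries and were not tested. Aldh8a1, Cyp2d11, Cyp2d40, Cyp3a57, Cyp4f18, Cyp4f37 and the second transcript of Cyp4a32 were tested at a few counts per culture and not called between EN and CV. With so few counts, a missing call does not show equal levels. Cyp2d11 had 4 counts in CV and 17 in EN, a ratio of 5.3 with a counting interval of 1.73 to 21.6. It shares 47.1% of its words with other listed genes. The remaining members not called in that comparison were Cyp3a16, Aldh2 and the transcript NM_019698.2 of Aldh18a1. Of the textbook enzymes looked for, Cyp1a1, Cyp11a1, Adh7, Aldh1a2 and Aldh1a3 were not analysed here.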

How the data were processed

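Expected counts per transcript were deposited by the authors as kallisto estimated them (version 0.43.0 in the submitters' processing notes), with an index that held only transcripts of proteins measured in the study's mass spectrometry, in a table that is named normalized; they were rounded to whole numbers here. The authors also deposited TPM values as kallisto gave them, and mRNA copies scaled to spike-ins. A normalized score per region, as whole numbers, was deposited by the authors for the 39 chromatin libraries used (ATAC-seq and the 3 marks), and for Hnf4g raw read counts per region of 3 libraries. Reads had been aligned to mm9 with BWA and peaks called with MACS2, duplicates removed with Picard and regions of H3K27me3 widened, and DESeq2 is named in the processing notes.

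For RNA, edgeR 4.0.16 was run on each transcript that had counts in 4 or more of the 12 libraries (TMM, quasi-likelihood, 1 fit of all 12 libraries, called at an adjusted p under 0.01) in R 4.3.3. The 92 spike-in transcripts stayed out. For chromatin, limma 3.58.1 was run on each region scored above 0 in 3 or more libraries of the assay (trend, log2(score + 1), a pseudocount of 1, called at an adjusted p under 0.05). Start sites and positions are those of the GENCODE annotation of mm9, in which 88 of 90 symbols matched by name and 2 by synonym, and region positions are as the file gives them. Shares of reads have exact binomial intervals at the 95% level. Both tests were checked on simulated data, limma only in the layout of ATAC-seq with 4 libraries per culture. The layout of the marks, with 3 libraries per culture, was not simulated. A ratio over a culture with few counts is given with its counting interval, and 3 counts is the floor. Depth was 5630951 to 8859744 expected counts per RNA library. For scores the depth is unknown.

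The members and gene lists were chosen with earlier results of these data known. Named genes are, per family, the 4 highest and 3 lowest called fold changes of EN over CV, where the libraries do not overlap, a set of textbook enzymes, members with ENR above or below both other cultures with both differences called, and genes of the pathway lists. Regions named are their promoter regions with the 3 largest rises and falls per dataset. Alternatives were DESeq2 1.42.0, upper-quartile and spike-in scaling, limma on log2(TPM + 1), log2(TPM + 5) and log2(copies + 1), other filters and thresholds, counts summed per symbol, a replicate block, the trend, the pseudocount, quantile normalization, a distance of 2000 bp and each library left out. Leaving out members that share 31-base words with other listed genes was chosen after seeing the data. The other libraries of histone marks and the Hnf4g knockout libraries were not analysed here.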

Additional observations from a re-analysis of the deposited data

Results flagged for a closer look

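In 210 groups of 4 libraries (64 named transcripts and 6 promoter regions in ATAC, in 3 cultures), 9 held a library whose gap to the nearest other, divided by the range of the group, was above the 95% critical value of Dixon; chance alone flags about 1 in 20 groups. Among transcripts these were Akr1c13 in CV (replicate 4 at 359 CPM, the others at 399 to 406), Aldh7a1 in ENR (replicate 3 at 3.80 CPM, the others at 5.24 to 5.38), Ces3a in CV (replicate 1 at 0.135 CPM, a single count, the others at 0), Cyp2c65 in CV (replicate 4 at 454 CPM, the others at 465 to 467), Cyp4a10 in ENR (replicate 4 at 9.82 CPM, the others at 5.56 to 6.15) and Cyp4f14 in ENR (replicate 2 at 254 CPM, the others at 285 to 289). Among ATAC scores they were Adh4 in CV (replicate 1 at 1, the others at 2), Akr1b8 in CV (replicate 1 at 15, the others at 17) and Cyp27a1 in EN (replicate 2 at 13, the others at 10), where whole-number scores tie easily.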

How the results depend on the processing

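For RNA, 64 to 66 transcripts higher in EN than in CV and 79 to 80 changed were called with any 1 library left out, 14 to 15 lower, and against ENR 74 to 75 changed, 67 to 68 higher and 7 lower. For CV against ENR the same ranges were 61 to 68 changed, 22 to 25 higher and 39 to 43 lower. Spike-in scaling gave 76 changed, 60 higher and 16 lower in EN against CV (62.1% of all transcripts changed). It gave 58 changed, 51 higher and 7 lower in EN against ENR (57.8% of all). For CV against ENR it gave 51 changed, 16 higher and 35 lower (28.4% of all). On the authors' mRNA copies 75 were changed and 8 lower in EN against CV (59.6% of all transcripts changed). In EN against ENR the copies gave 74 changed and 2 lower (65.8% of all). In CV against ENR they gave 37 changed and 20 lower (17.8% of all). Asking for 2-fold gave 37 changed, 14 higher and 23 lower in CV against ENR, and without members sharing words 28 were lower there. Scaling moved the median of all transcripts between EN and CV from -0.08 to -0.20 (upper quartile), -0.49 (spike-ins), -0.34 (log2(TPM + 1)) and 0.62 (copies).

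Directions turned, compared with the values in brackets, for Aldh18a1 (NM_019698.2) with counts summed per symbol (0.69 in EN against CV [-0.44], 0.72 in EN against ENR [-0.01]), with spike-in scaling for Aldh6a1 (-0.0065 [0.41] against CV, -0.30 [0.22] against ENR), Aldh9a1 (-0.0358 [0.37] against CV) and Aldh1b1 (-0.18 [0.33] against ENR), on copies for Cyp2e1 (0.90 [-0.05]), Cyp2c70 (0.20 [-0.78]) and Pon3 (0.44 [-0.55]) in EN against ENR and Aldh6a1 (0.0497 [-0.20]) in CV against ENR, and on TPM for Akr1a1 in CV against ENR (0.0542 with a pseudocount of 1 and 0.0538 with 5 [-0.10]). Except where scaling is the change, the cause was not tested. Of 230 single values, 142 kept their direction and side of the threshold in all their alternatives.

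For ATAC regions, quantile normalization gave 8 lower, the stricter threshold of 0.01 gave 3 lower, and 2000 bp gave 63 changed, 53 higher and 10 lower of 146 regions; leaving out 1 library gave 34 to 40 changed, 29 to 35 higher and 5 to 7 lower. For H3K27ac, no trend gave 3 changed, 3 higher and 0 lower, quantile normalization 20 higher and 3 lower, the threshold of 0.01 gave 16, 16 and 0, 2000 bp gave 2 lower, and leaving out 1 library 15 to 29 changed, 14 to 28 higher and 0 to 1 lower. For H3K4me3, no trend gave 2 lower, quantile normalization 17 changed, 15 higher and 2 lower, a mean score of at least 5 gave 12, 9 and 3, the threshold of 0.01 gave 2 changed and 1 higher, 2000 bp gave 13, 11 and 2, and leaving out 1 library 2 to 23 changed, 1 to 21 higher and 1 to 2 lower. H3K27me3 had 0 calls in all of these. With regions within 2000 bp the Hnf4g share was 0.251% in CV, 0.222% in ENR and 0.285% in EN.

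Deviations from the culture means of same-numbered libraries of different cultures had a mean r of 0.0133 in RNA (0 of 12 pairs above 0.1; 1 of 12 libraries correlated best with its own number) and 0.17 in ATAC (8 of 12 pairs above 0.1, range 0.0695 to 0.46; 6 of 12 libraries). The pairs above 0.1 were 0 of 5 for H3K27ac, 2 of 7 for H3K4me3 and 0 of 6 for H3K27me3. As not every pair was above 0.1 in any assay and the labels name no shared day or culture, the number was not used as a pairing. With it as a block, 79, 74 and 64 transcripts changed in EN against CV, EN against ENR and CV against ENR, and 41 ATAC regions. H3K27ac had 0 changed, 0 higher and 0 lower and H3K4me3 2 changed and 1 higher under the block, in which the numbers are shared by few libraries of different cultures.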
